A study of Mus musculus with 40 samples.

Results

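The Trav8 family is the group of T cell receptor alpha (Tcra) variable segments whose names carry the number 8 in the mouse locus: Trav8d-1, Trav8d-2, Trav8n-2, Trav8-1 and Trav8-2. The members were the rows of the Tcra repertoire tables whose name is Trav8, with or without the copy letter D or N, followed by a subgroup number. All 5 were listed in each of the 4 tables, out of 111 V segments in all and 105 listed in every table. The tested mice were EACBE-/-, homozygous for loss of a binding site of the insulator protein CTCF at Ea, the Tcra enhancer. The comparison mice were EACBE+/+ (wild type). Both groups were C57BL/6 and 4 to 8 weeks old, and both gave 2 libraries of thymocyte RNA made by 5′ RACE, which reads a transcript from an adapter added at its 5′ end and so does not require a primer inside each V segment. The labels do not say how many mice stand behind a library, so p-values measure only the spread between these libraries.

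A Tcra gene is assembled by joining 1 V segment (Trav) to 1 J segment (Traj), with deletion of the DNA between them. The Ea enhancer lies beyond the J array on its C side. A thymocyte can replace its first join by a later one, and successive joins use V segments farther from the J array and J segments nearer its C side. Trav segments close to the J array are therefore known to pair mostly with J segments at the 5′ end of that array. In C57BL/6 mice the middle of the V array arose by duplication, and the letters D and N mark the copies of an original segment.

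The 5 segments are spread over most of the V array, on chromosome 14 of GRCm38.p6, where each is annotated as a V segment. Trav8d-1, the copy farthest from the J array, lies at chr14:52778510-52778995, and its start is the 15th of 130 annotated Trav starts, 1378.3 kb before Traj58. Trav8d-2 lies at chr14:53042428-53042891 and is the 44th, at 1114.4 kb. Trav8n-2 lies at chr14:53345961-53346424 and is the 78th, at 810.9 kb. The original segments are nearer the J array. Trav8-1 lies at chr14:53469756-53470231 and is the 89th, at 687.0 kb, and Trav8-2 lies at chr14:53738375-53738838 and is the 116th, at 418.4 kb. The annotated lengths were 464 bp for Trav8-2, Trav8d-2 and Trav8n-2, 476 bp for Trav8-1 and 486 bp for Trav8d-1. A repertoire count is a whole number per V and J pair, whether of reads or of receptors, and is not scored per base. Levels are thus given as shares of a table without division by length.

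The tables held 19085 and 163953 counts in EACBE-/- libraries and 10694 and 172388 counts in EACBE+/+ libraries, replicates 1 and 2 in this order here and in all values that follow. The replicate 1 tables were thus the shallow ones in both genotypes, and the intervals below, Wilson intervals at 95%, cover counting error only. They treat each count as independent of the others. No source used here says how counts were divided among near-identical copies, so the values of single copies are uncertain, and sums over copies are given beside them.

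The Trav8 family as a whole took a similar share of the repertoire in both genotypes. It held 608 and 4486 counts in EACBE-/- libraries, against 350 and 5706 counts in EACBE+/+ libraries. These were 3.19% and 2.74% of the table in EACBE-/- libraries, against 3.27% and 3.31% in EACBE+/+ libraries. The means were 2.96% ± 0.318 in EACBE-/- libraries and 3.29% ± 0.0262 in EACBE+/+ libraries (SD, n = 2 each), a difference of -0.331 points. The 2-sided exact permutation p was 0.33, which is the smallest that 2 libraries against 2 can give. Both EACBE-/- libraries lay below both EACBE+/+ libraries. The difference in means was about the size of the SD in the EACBE-/- libraries and larger than the SD in the EACBE+/+ libraries.

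Inside the family, the copies did not take the same shares in the 2 genotypes. Trav8d-1, the farthest copy, was used 1.97 times as much in EACBE-/- libraries, Trav8n-2 was used less, and Trav8-1 nearly the same, although no single copy passed the test across all V segments. Trav8d-1 held 206 and 1255 counts in EACBE-/- libraries, against 56 and 713 in EACBE+/+ libraries. As a share of the table this was 1.08% (interval 0.942 to 1.24) and 0.766% (0.724 to 0.809) in EACBE-/- libraries, against 0.524% (0.404 to 0.679) and 0.414% (0.384 to 0.445) in EACBE+/+ libraries. Both EACBE-/- libraries lay above both EACBE+/+ libraries. The fitted log2 change in its share of the table was 0.98 ± 0.375 (SE), with an adjusted p of 0.247 in edgeR's quasi-likelihood test over 105 Trav segments.

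Trav8n-2, the only N copy of the family, was the least used member in EACBE-/- libraries. It held 42 and 322 counts in EACBE-/- libraries, or 0.220% and 0.196% of the table, against 49 and 830 counts in EACBE+/+ libraries, or 0.458% and 0.482%. The values of the 2 genotypes did not overlap, and the replicates of each lay close together. The EACBE+/+ mean was 2.26 times the EACBE-/- mean, and the fitted log2 change was -1.18 ± 0.439 (SE; edgeR, adjusted p = 0.247).

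The other copies of subgroup 2 differed in the same direction by less. Trav8-2, the member nearest the J array, held 84 and 735 counts in EACBE-/- libraries, or 0.440% and 0.448%, against 69 and 1254 counts in EACBE+/+ libraries, or 0.645% and 0.727%. Its fitted log2 change was -0.63 ± 0.357 (SE; edgeR, adjusted p = 0.429). Trav8d-2 held 89 and 689 counts in EACBE-/- libraries, or 0.466% and 0.420%, against 67 and 1032 counts in EACBE+/+ libraries, or 0.627% and 0.599%. Its fitted log2 change was -0.47 ± 0.364 (SE; edgeR, adjusted p = 0.547).

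Trav8-1, the most used member in the mean of either genotype, held 187 and 1485 counts in EACBE-/- libraries, or 0.980% and 0.906%, against 109 and 1877 counts in EACBE+/+ libraries, or 1.02% and 1.09%. Its fitted log2 change was -0.16 ± 0.305 (SE; edgeR, adjusted p = 0.813), well inside its own error. In EACBE-/- libraries Trav8-1 and Trav8d-1 overlapped as the most used members, Trav8-2 and Trav8d-2 overlapped below them, and Trav8n-2 was lowest. In EACBE+/+ libraries Trav8-1 came first, followed by Trav8-2 and then Trav8d-2, whose values were adjacent without overlapping, while Trav8n-2 and Trav8d-1 overlapped at the bottom.

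Thus 0 of 5 members passed an adjusted p of 0.05 in edgeR, where 5.71% of all 105 segments did. With the replicate number as a block, which no label gives as a shared batch, 3 of 5 passed, as did 49 of all 105 segments. Without that block, 2 of 5 members passed an unadjusted p of 0.05 in edgeR and 0 in DESeq2, against 18 and 13 of all 105 segments. The libraries of the genotypes did not overlap for 5 of 5 members, and for 49.5% of all segments. The median log2 change was -0.47 over the members and -0.12 over all segments tested. Among 89 other Trav segments that have or are a D or N copy, 0 passed as higher and 1 as lower, with 47 above 0 and 41 below, and their median was 0.09.

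**Figure D1:**
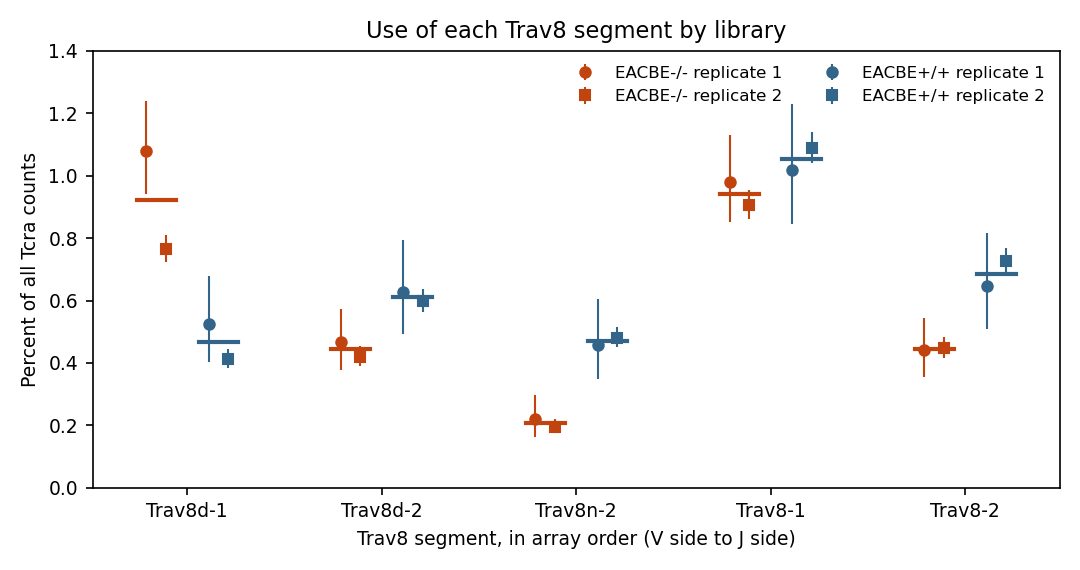
Share of all Tcra counts (percent, y axis) held by each Trav8 segment (x axis, in array order) in each library. Points are libraries with Wilson 95% intervals, and short bars are genotype means. Trav8d-1 is higher in both EACBE-/- libraries (1.08% and 0.766%) than in EACBE+/+ libraries (0.524% and 0.414%), while Trav8n-2, Trav8d-2 and Trav8-2 are lower.

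Summing copies within a subgroup removes the dependence on how counts were divided among those copies. The sum would still depend on any counts that were dropped or assigned outside the subgroup. Trav8-2, Trav8d-2 and Trav8n-2 together took 1.13% and 1.06% of the table in EACBE-/- libraries, against 1.73% and 1.81% in EACBE+/+ libraries. The libraries did not overlap. The summed subgroup 2 fell by 0.69 on the log2 scale (SE 0.138; edgeR's quasi-likelihood test, adjusted p = 0.025). This threshold was passed by 26.1% of the 46 summed segments. The call was lost with TMM scaling (log2 -0.55, adjusted p = 0.0565), with DESeq2 (log2 -0.54, adjusted p = 0.139) and whenever any 1 of the 4 libraries was left out, when the adjusted p in edgeR lay between 0.101 and 0.152. Trav8-1 and Trav8d-1 together took 2.06% and 1.67% in EACBE-/- libraries, against 1.54% and 1.502% in EACBE+/+ libraries. These did not overlap either, with a fitted log2 change of 0.29 ± 0.163 (SE) and an adjusted p of 0.259 in edgeR.

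As shares of the family's own counts, the division between the subgroups was turned round between the genotypes. Subgroup 1 (Trav8-1 and Trav8d-1) made up 64.6% and 61.1% of the family in EACBE-/- libraries, against 47.1% and 45.4% in EACBE+/+ libraries. Subgroup 2 made up the remaining 35.4% and 38.9% in EACBE-/- libraries, against 52.9% and 54.6% in EACBE+/+ libraries. Subgroup 1 was thus the larger in both EACBE-/- libraries and the smaller in both EACBE+/+ libraries.

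Within subgroup 1 the difference lay in Trav8d-1. It made up 33.9% and 28.0% of family counts in EACBE-/- libraries, against 16.0% and 12.5% in EACBE+/+ libraries, a difference of 16.7 points. Trav8-1 stayed level, with 30.8% and 33.1% in EACBE-/- libraries, against 31.1% and 32.9% in EACBE+/+ libraries. In subgroup 2, Trav8n-2 made up 6.91% and 7.18% in EACBE-/- libraries, against 14% and 14.6% in EACBE+/+ libraries. Trav8-2 made up 13.8% and 16.4% in EACBE-/- libraries, against 19.7% and 22.0% in EACBE+/+ libraries. Trav8d-2 differed by the least in this subgroup, with 14.6% and 15.4% in EACBE-/- libraries, against 19.1% and 18.1% in EACBE+/+ libraries.

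By copy letter, the D copies together made up 48.5% and 43.3% of the family in EACBE-/- libraries, against 35.1% and 30.6% in EACBE+/+ libraries. The original segments made up 44.6% and 49.5% in EACBE-/- libraries, against 50.9% and 54.9% in EACBE+/+ libraries. The letter did not give the direction of a copy's difference, since Trav8d-1 was higher and Trav8d-2 lower in EACBE-/- libraries. Each of these shares had an exact permutation p of 0.33, the smallest possible, other than that of Trav8-1, whose libraries overlapped.

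The J segments joined by each copy were then compared. The 43 Traj listed were divided by array position into a 5′ list of 13 (Traj58 to Traj42), a middle list of 16 (Traj40 to Traj22) and a 3′ list of 14 (Traj21 to Traj2). Trav8-2 stood apart from the rest of its family in every library. It joined the 5′ list in 54.8% and 56.7% of its counts in EACBE-/- libraries, and in 66.7% and 65.5% in EACBE+/+ libraries. The 5′ share of the other 4 copies ranged between 11.9% and 25.0% over all libraries. Its 3 most used partners by mean share were Traj45, Traj49 and Traj58, all of the 5′ list.

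Each of the other members joined the 3′ list more than Trav8-2 did in every library. Trav8-1 and Trav8d-1 had the same 3 leading partners by mean share, Traj31, Traj22 and Traj23. Those of Trav8n-2 were Traj23, Traj26 and Traj31, and those of Trav8d-2 were Traj12, Traj23 and Traj22. Traj31 and Traj23 were also among the 3 leading partners of all other Trav segments pooled. The Traj profiles of Trav8d-1 and Trav8-1 overlapped by 89.3% in EACBE-/- replicate 2 and by 83.7% in EACBE+/+ replicate 2, where overlap is the sum over Traj of the smaller of the 2 shares. Trav8-2 overlapped with the other members by 49.3% to 60.9% in EACBE-/- replicate 2 and by 41.8% to 53.2% in EACBE+/+ replicate 2. The low counts of the replicate 1 tables lower every such overlap, so the overlaps between members are given for the deep libraries alone.

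The mean J position followed array position only in part. Measured from Traj58, Trav8-2 joined at a mean distance of 18.9 and 19.9 kb in EACBE-/- libraries, against 16.9 and 17.0 kb in EACBE+/+ libraries. Trav8d-2 joined farthest along the array in the deep libraries, at 33.8 and 34.8 kb in EACBE-/- libraries, against 37.9 and 39.7 kb in EACBE+/+ libraries. Trav8d-1, although more distant from the J array than Trav8d-2, joined nearer its 5′ end, at 30.1 and 30.7 kb in EACBE-/- libraries, against 32.5 and 33.9 kb in EACBE+/+ libraries. The mean position of Trav8-2 was thus farther toward the C side in EACBE-/- libraries, and that of Trav8d-1, Trav8d-2 and Trav8n-2 nearer the 5′ end. All other Trav segments together joined at 25.9 and 25.8 kb in EACBE-/- libraries, against 29.3 and 30.3 kb in EACBE+/+ libraries.

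Across Trav segments with at least 100 counts, V start and mean J position ran opposite to each other. Spearman's rho was -0.64 over 57 segments and -0.58 over 96 segments in EACBE-/- libraries, and -0.80 over 40 segments and -0.67 over 100 segments in EACBE+/+ libraries. These are descriptions, since the segments of a table share a library and its depth. Trav8-2 ranked 7th of 96 from the 5′ end in EACBE-/- replicate 2 and 5th of 100 in EACBE+/+ replicate 2. Trav8d-2 ranked 93rd of 96 in EACBE-/- replicate 2 and 95th of 100 in EACBE+/+ replicate 2.

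**Figure D2:**
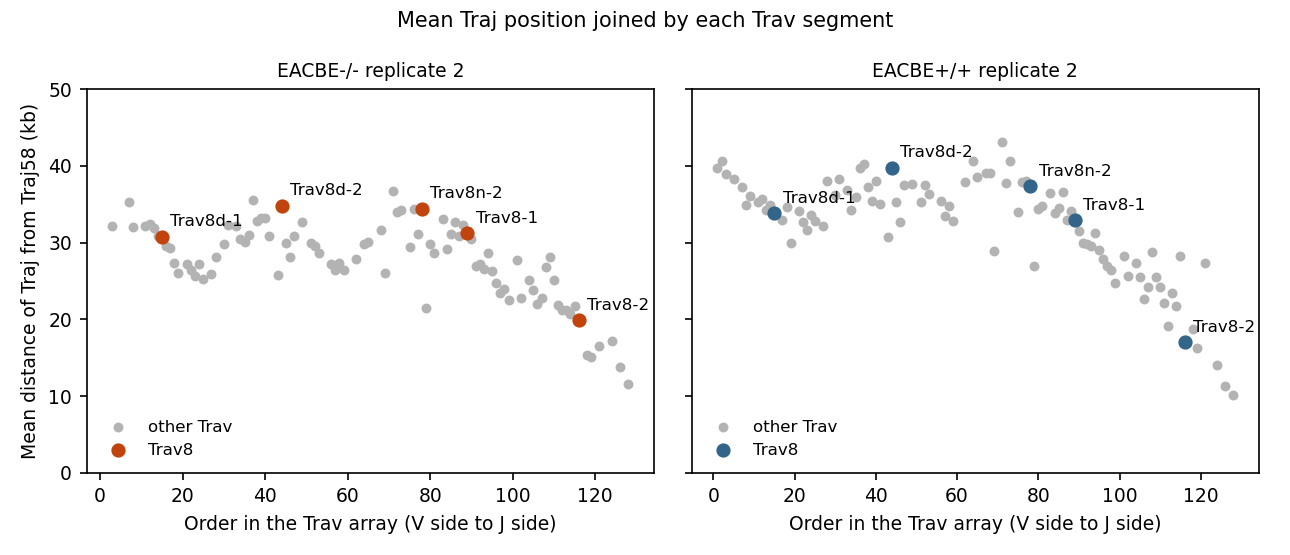
Mean distance from Traj58 of the Traj joined (kb, y axis) against the order of Trav segments in the array (x axis), for segments with at least 100 counts in the replicate 2 library of each genotype. Coloured points are Trav8 members, and grey points other Trav segments. Trav8-2 sits low at 19.9 kb in the EACBE-/- library and 17.0 kb in the EACBE+/+ library, and Trav8d-2 sits high at 34.8 kb in the EACBE-/- library and 39.7 kb in the EACBE+/+ library.

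Between genotypes, the D copies joined the 3′ list less in EACBE-/- libraries, and Trav8d-2 joined the middle list more. Trav8d-1 joined the 3′ list in 16.5% and 22.3% of its counts in EACBE-/- libraries, against 32.1% and 37.0% in EACBE+/+ libraries. This share fell by 0.81 on the log2 scale (SE 0.22; edgeR with the segment's own total as offset, adjusted p = 0.00212). Trav8d-2 joined it in 26.97% and 35.6% in EACBE-/- libraries, against 49.3% and 55.3% in EACBE+/+ libraries. Its share fell by 0.70 on the log2 scale (SE 0.233; edgeR, adjusted p = 0.0134). The middle list of Trav8d-2 rose, with 53.9% and 50.2% in EACBE-/- libraries, against 32.8% and 29.5% in EACBE+/+ libraries (log2 change 0.77, SE 0.232; edgeR, adjusted p = 0.00664). The libraries did not overlap in any of these 3.

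Other member and list combinations did not pass. Trav8n-2 joined the 3′ list in 26.2% and 33.2% of its counts in EACBE-/- libraries, against 42.9% and 45.4% in EACBE+/+ libraries (log2 change -0.50; edgeR, adjusted p = 0.085). It joined the middle list in 61.9% and 53.7% in EACBE-/- libraries, against 44.9% and 39.5% in EACBE+/+ libraries (log2 change 0.46; edgeR, adjusted p = 0.101). These did not overlap, with as few as 42 counts in the EACBE-/- replicate 1 library. The middle list of Trav8d-1 had 60.7% and 56.02% in EACBE-/- libraries, against 42.9% and 40.5% in EACBE+/+ libraries (edgeR, adjusted p = 0.0942).

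Trav8-1 had overlapping 3′ shares in the 2 genotypes. It joined the 3′ list in 19.8% and 23.4% of its counts in EACBE-/- libraries, against 18.3% and 30.7% in EACBE+/+ libraries (log2 change -0.30; edgeR, adjusted p = 0.297). The shallow EACBE+/+ library, with 109 counts of Trav8-1, was the lowest of the 4. The deep one was the highest.

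Trav8-2 rarely joined the 3′ list in either genotype, with 3.57% and 8.03% of its counts in EACBE-/- libraries, against 4.35% and 8.69% in EACBE+/+ libraries (log2 change -0.16; edgeR, adjusted p = 0.667). Its difference lay in the middle and 5′ lists, by 11.0 and -10.3 points between the genotype means. It joined the middle list in 41.7% and 35.2% in EACBE-/- libraries, against 29.0% and 25.8% in EACBE+/+ libraries (log2 change 0.48, adjusted p = 0.0889 in edgeR). Its 5′ share of 54.8% and 56.7% in EACBE-/- libraries lay below that of 66.7% and 65.5% in EACBE+/+ libraries, a log2 change of -0.23 (SE 0.236; edgeR, adjusted p = 0.448).

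In all, 3 of the 15 member and list combinations passed, against 33.7% of the 306 tested over all Trav segments. The genotypes' libraries did not overlap in 9 of 15, against 60.8% of all. The 3′ list passed as lower in 2 of 5 members, against 66.0% of 103 Trav segments, and the median log2 change of that list was -0.50 over members and -0.69 over all. The middle list passed as higher in 1 of 5 members, against 13.3% of 105, with medians of 0.48 and 0.28. In the 5′ list 0 of 5 members passed, where 20 of 98 segments were higher and 1 lower, and the median was -0.14 over members and 0.28 over all. The members' 3 calls fell to 0 without EACBE-/- replicate 1, without EACBE-/- replicate 2 or without EACBE+/+ replicate 2, and were 6 without EACBE+/+ replicate 1. They were also 0 with the table total as offset, which tests the share of the table and not the J profile. There the log2 change of Trav8d-1 with the 3′ list was 0.12, so that its counts with the 3′ list were not fewer per table, and the change above is one within the counts of Trav8d-1.

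**Figure D3:**
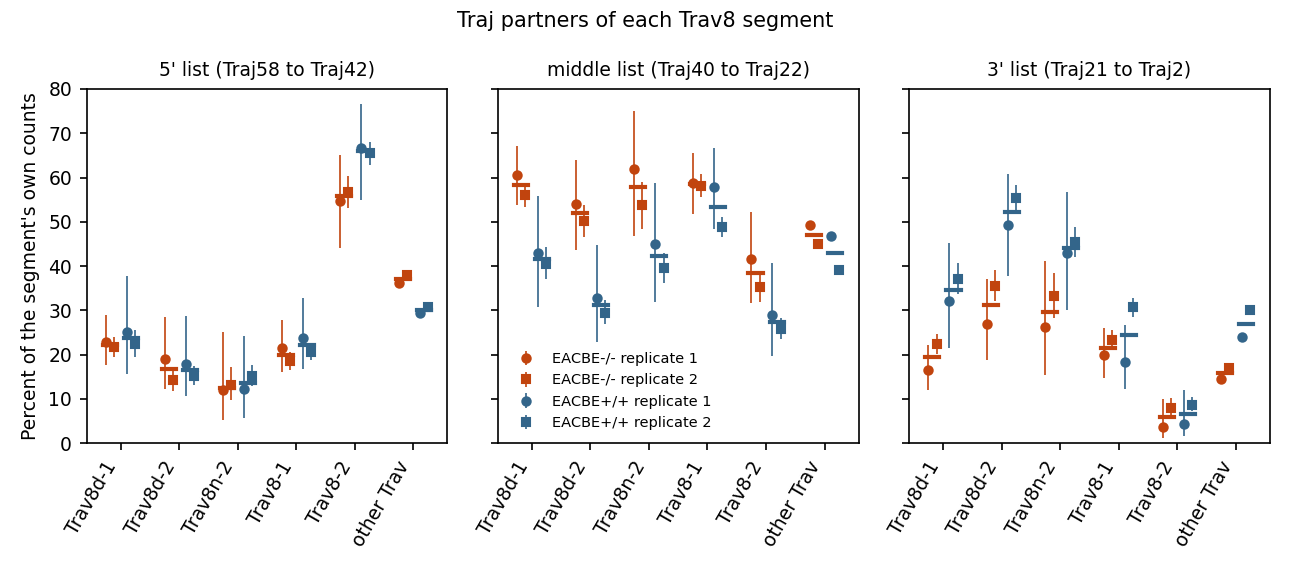
Share of each segment's own counts (percent, y axis) joined to the 5′, middle and 3′ Traj lists, for each Trav8 segment and for all other Trav segments together (x axis). Points are libraries with Wilson 95% intervals and short bars genotype means. Trav8-2 has the highest 5′ share (54.8% and 56.7% in EACBE-/- libraries, 66.7% and 65.5% in EACBE+/+ libraries). In the middle list all 5 members lie higher in EACBE-/- libraries without overlap, and 1 of 5 passed. For Trav8-1 the replicate 1 values are close, 58.8% in EACBE-/- and 57.8% in EACBE+/+. Over all 105 segments, 59 did not overlap in that list, in either direction.

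Summed over the family, the 5′ share was lower in EACBE-/- libraries, while that of all other Trav segments pooled was higher. Trav8 joined the 5′ list in 25.5% and 24.6% of its counts in EACBE-/- libraries, against 29.7% and 28.9% in EACBE+/+ libraries. All other Trav segments joined it in 36.3% and 38.1% in EACBE-/- libraries, against 29.3% and 30.7% in EACBE+/+ libraries. The family's share minus that of the other segments was -10.8 and -13.5 points in EACBE-/- libraries, against 0.364 and -1.84 points in EACBE+/+ libraries. The gap thus differed by -11.4 points between genotypes and by -11.1 and -11.7 points within replicate numbers 1 and 2, with the smallest possible exact permutation p of 0.33.

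The lower 5′ share of the family stood beside a higher share in the middle list. Trav8 joined the middle list in 56.6% and 52.3% of its counts in EACBE-/- libraries, against 43.1% and 37.9% in EACBE+/+ libraries, while the other segments joined it in 49.3% and 45.0% in EACBE-/- libraries, against 46.8% and 39.2% in EACBE+/+ libraries. The gap between the family and the others was 7.33 and 7.31 points in EACBE-/- libraries, against -3.65 and -1.35 points in EACBE+/+ libraries. In the 3′ list both the family and the others had lower shares in EACBE-/- libraries. Trav8 joined it in 17.9% and 23.1% in EACBE-/- libraries, against 27.1% and 33.2% in EACBE+/+ libraries. The other segments joined it in 14.5% and 17.0% in EACBE-/- libraries, against 23.9% and 30.1% in EACBE+/+ libraries.

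The family's lower 5′ share came with Trav8-2, which joined the 5′ list less and held a smaller part of the family in EACBE-/- libraries. The 4 copies without Trav8-2 joined the 5′ list in 20.8% and 18.3% of their counts in EACBE-/- libraries, against 20.6% and 18.6% in EACBE+/+ libraries, which overlapped. The direction of Trav8-2 was shared by some other segments of its region and not by others. Of 30 other Trav segments tested on the J side of Trav8-1, a split chosen after the values were seen, 7 had lower 5′ shares in EACBE-/- libraries without overlap and 9 had higher ones. On the V side of Trav8-1 these counts were 0 and 38 of 63. The 7 lie between the 109th and the 126th Trav start, around Trav8-2 at the 116th. Trav5-4, for one, had 47.4% and 51.3% in EACBE-/- libraries, against 59.6% and 59.2% in EACBE+/+ libraries. Trav3-4, the 121st and thus inside the same span, went the other way. It had 63.3% and 68.1% in EACBE-/- libraries, against 41.9% and 39.9% in EACBE+/+ libraries. Trav13-3 and Trav13-4-dv7, the nearest listed segments on the sides of Trav8-2, had overlapping 5′ shares.

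The weighting of copies and the bounds of the list also bore on the value. With all copies weighted equally the difference in 5′ share was -3.03 points, against -4.27 points with counts summed. It turned to 3.75 points when the array was split at Traj32 into 5′ and 3′ parts only. With the 5′ list narrowed to the Traj nearest the V array, down to Traj48, it was -6.86 points. The sign of the family's 5′ difference thus depended on where the 5′ list ended.

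Along single Traj segments, the change within the family was arched: joins to both ends of the J array fell and joins to parts of its middle rose. Of 43 Traj tested in Trav8, 7 fell and 3 rose, or 23.3%, where 15.0% of 665 family and Traj combinations passed in edgeR. The libraries did not overlap for 28 of the 43, against 55.5% of all combinations. With the table total in place of the family total as offset, which tests the share of the table, the 7 Traj at the ends were lower and 0 were higher, so the 3 middle Traj lost their calls (Traj38 with a log2 change of 0.87; edgeR, adjusted p = 0.14).

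At the C side, Traj2 joined Trav8 in 1 and 15 counts in EACBE-/- libraries, or 0.164% and 0.334% of family counts, against 3 and 129 counts in EACBE+/+ libraries, or 0.857% and 2.26%. It fell by 2.69 on the log2 scale (SE 0.46; edgeR, adjusted p = 0.000289). Traj4 had 3 and 25 counts in EACBE-/- libraries, against 10 and 170 in EACBE+/+ libraries, and fell by 2.42 (SE 0.36; edgeR, adjusted p = 5.93e-05). Both Traj lie near the end of the J array on its C side. The call of Traj4 was kept whichever library was left out, with an adjusted p in edgeR of 0.044 at most, and that of Traj2 was kept in the 3 fits that tested it, with 0.0323 at most.

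Traj5 had 3 and 12 counts in EACBE-/- libraries, against 2 and 69 in EACBE+/+ libraries (log2 change -1.89; edgeR, adjusted p = 0.00994). Traj6 had 0 and 53 counts in EACBE-/- libraries, against 9 and 133 in EACBE+/+ libraries (log2 change -1.32; edgeR, adjusted p = 0.044). The same 4 C-side Traj also fell in most other families. Among the other families tested, Traj2 was lower in 10 of 10, Traj4 in 12 of 14, Traj5 in 8 of 8 and Traj6 in 11 of 12.

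At the V side, the first 3 Traj all fell in Trav8. Traj58 joined Trav8 in 6 and 44 counts in EACBE-/- libraries, or 0.987% and 0.981%, against 7 and 130 counts in EACBE+/+ libraries, or 2.00% and 2.28%. It fell by 1.18 on the log2 scale (SE 0.343; edgeR, adjusted p = 0.0234). Of the 15 other families tested with Traj58, 1 passed as lower and 0 as higher, with a median log2 change of -0.28. Their changes were below 0 in 11 and above 0 in 4. The call in Trav8 was lost without EACBE-/- replicate 1, EACBE-/- replicate 2 or EACBE+/+ replicate 2 (edgeR, adjusted p = 0.0862, 0.332 and 0.547), while the log2 change stayed between -1.21 and -1.02. Traj57 and Traj56, named after their values were seen, fell by 1.56 and 1.01 in Trav8 (edgeR, adjusted p = 0.0274 and 0.0368). Traj57 had 1 and 30 counts in EACBE-/- libraries, or 0.164% and 0.669%, against 1 and 114 counts in EACBE+/+ libraries, or 0.286% and 2.00%, so its libraries overlapped. None of the 16 other families passed with either Traj, and their median log2 changes were 0.03 with Traj57 and -0.19 with Traj56. With Traj57, 7 were below 0 and 9 above, and with Traj56, 12 were below 0 and 4 above. Whether Trav8 differs from those families at these Traj was not tested.

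In the middle, Traj38 had 11 and 102 counts in EACBE-/- libraries, against 5 and 53 in EACBE+/+ libraries, and rose by 1.11 on the log2 scale (SE 0.358; edgeR, adjusted p = 0.0374). Traj39 and Traj30, also named after their values were seen, each rose by 0.94 (edgeR, adjusted p = 0.0225 and 0.0462). Traj39 and Traj38 were above 0 in every other family tested, 16 of 16 and 14 of 14, with 2 and 4 of them past the threshold. Traj30 was above 0 in 8 of 14 other families, with 0 past it. The family's 10 calls were 2 without EACBE-/- replicate 1, 4 without EACBE-/- replicate 2, 15 without EACBE+/+ replicate 1 and 1 without EACBE+/+ replicate 2.

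**Figure D4:**
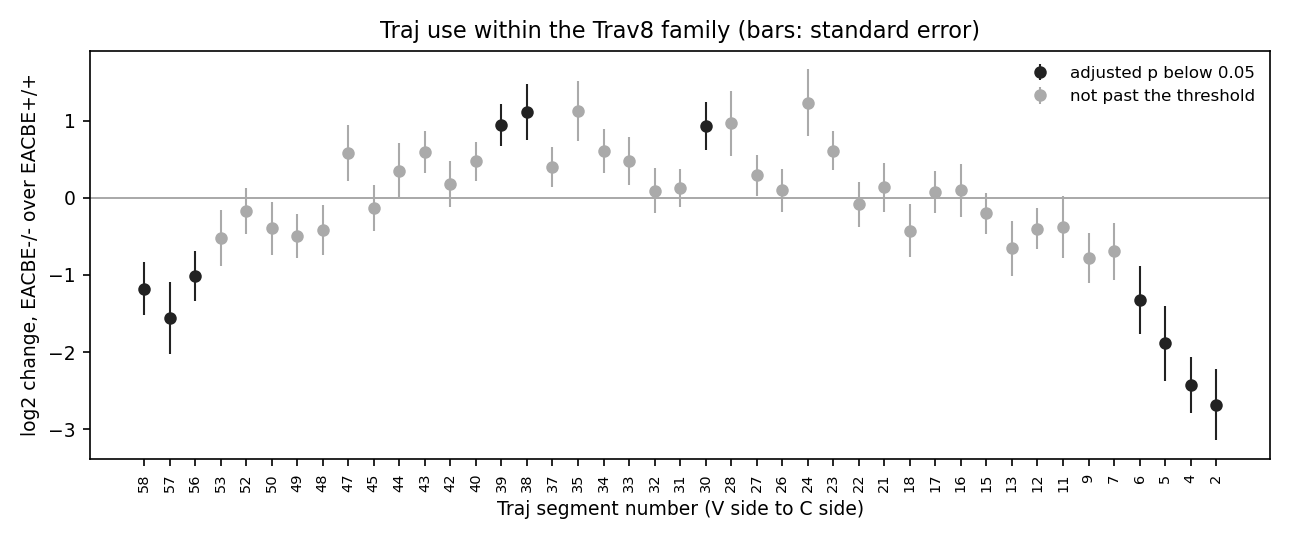
Fitted log2 change (EACBE-/- over EACBE+/+, y axis) of each Traj within Trav8 family counts, with standard errors, along the J array (x axis, V side at left). Black points passed an adjusted p of 0.05. Both ends lie below 0, with Traj58 at -1.18 and Traj2 at -2.69, and Traj38 at 1.11 marks the highest called point.

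Most of the family's joins to these 3 Traj came from Trav8-2, and their sum, chosen after the values were seen, is given here. Trav8-2 joined Traj58, Traj57 or Traj56 in 8 of 84 and 92 of 735 counts in EACBE-/- libraries, or 9.52% (interval 4.91 to 17.7) and 12.5% (10.3 to 15.1). It did so in 11 of 69 and 279 of 1254 counts in EACBE+/+ libraries, or 15.9% (9.14 to 26.3) and 22.2% (20.0 to 24.6). The libraries did not overlap, though the intervals of the shallow ones did. The other 4 copies together joined these Traj in 0.954% and 1.17% of counts in EACBE-/- libraries, against 1.42% and 2.76% in EACBE+/+ libraries. All other Trav segments joined them in 6.32% and 8.91% in EACBE-/- libraries, against 6.53% and 8.36% in EACBE+/+ libraries, with no constant direction between replicates. Of the 30 other segments on the J side of Trav8-1, 8 had lower shares of these Traj in EACBE-/- libraries without overlap and 2 had higher ones. On the V side these counts were 7 and 6 of 63, and over all other segments 15 and 8 of 93.

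**Figure D5:**
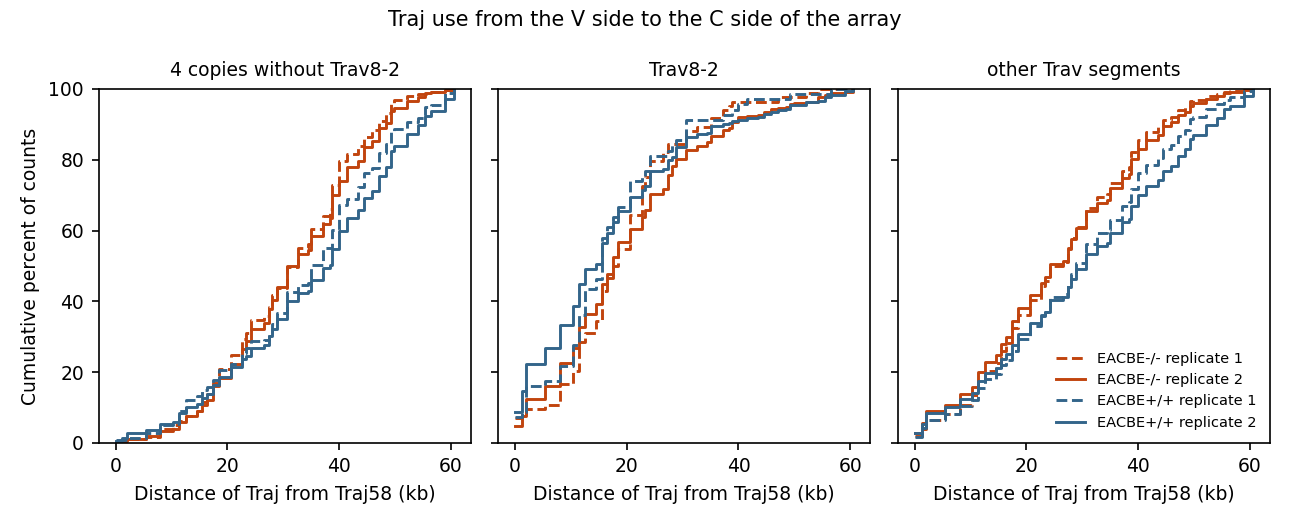
Cumulative share of counts (percent, y axis) along the J array, by distance of the Traj from Traj58 (kb, x axis), for the 4 copies without Trav8-2, for Trav8-2 and for all other Trav segments. Lines are libraries. The EACBE-/- lines run below the EACBE+/+ lines at the V side for Trav8-2, where the first 3 Traj sum to 9.52% and 12.5% in EACBE-/- libraries and 15.9% and 22.2% in EACBE+/+ libraries, and above them at the C side for the other sets.

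Single V-J pairs gave few calls at these depths. Of 113 Trav8 pairs tested 1 passed, or 0.885%, against 3.27% of 2416 pairs over all Trav segments. Trav8d-2 with Traj4 had 1 and 7 counts in EACBE-/- libraries, against 4 and 77 in EACBE+/+ libraries, and fell by 3.22 on the log2 scale (SE 0.821; edgeR, adjusted p = 0.0218). This call was lost with DESeq2 (adjusted p = 0.394), and in edgeR without EACBE-/- replicate 1 (adjusted p = 0.0682) or with segments listed in 1 replicate number kept (adjusted p = 0.0523). The pair was not among those tested without EACBE-/- replicate 2 or without EACBE+/+ replicate 2.

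The pairs with the next lowest p did not pass. Trav8d-1 with Traj30 had 14 and 47 counts in EACBE-/- libraries, against 0 and 15 in EACBE+/+ libraries (edgeR, adjusted p = 0.0649). Trav8d-1 with Traj24 had 5 and 20 counts in EACBE-/- libraries, against 0 and 3 in EACBE+/+ libraries (edgeR, adjusted p = 0.149). Both of these were Trav8d-1 joins to the middle list with more counts in EACBE-/- libraries. Trav8n-2 with Traj7 had 1 and 1 count in EACBE-/- libraries, against 3 and 27 in EACBE+/+ libraries (edgeR, adjusted p = 0.108), and with Traj13 it had 1 and 4 in EACBE-/- libraries, against 3 and 31 in EACBE+/+ libraries (edgeR, adjusted p = 0.147). Both of these were Trav8n-2 joins to the 3′ list.

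Most members paired with the whole J array where depth allowed it. In the replicate 2 libraries the members had a count with 39 to 43 of the 43 Traj, and in the replicate 1 libraries with 22 to 37. Thinned to its own shallowest library, most members met a similar number in both genotypes. Trav8d-1, thinned to 56 counts, met 26.6 and 27.2 Traj in EACBE-/- libraries, against 27 and 29.6 in EACBE+/+ libraries. Trav8-2, thinned to 69 counts, met 26.2 and 28.5 in EACBE-/- libraries, against 27 and 26 in EACBE+/+ libraries. Trav8d-2, thinned to 67 counts, met 30.9 and 29.6 in EACBE-/- libraries, against 26 and 29.5 in EACBE+/+ libraries.

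The nearest listed Trav on each side of a member did not all follow it in level. Beside Trav8d-1, Trav9d-1 took 0.257% and 0.112% of the table in EACBE-/- libraries, against 0.0655% and 0.0464% in EACBE+/+ libraries (log2 change 1.74; edgeR, adjusted p = 0.429). Trav7d-4, on its other side, took 2.52% and 1.41% in EACBE-/- libraries, against 1.58% and 0.755% in EACBE+/+ libraries (log2 change 0.76; edgeR, adjusted p = 0.447). Both fitted changes had the sign of that of Trav8d-1, and the libraries of Trav7d-4 overlapped. Farther toward the J array, in a stretch chosen after the values were seen, more segments were higher in EACBE-/- libraries without overlap. These were Trav6d-5, Trav10d, Trav7d-5, Trav12d-1, Trav13d-1, Trav14d-1 and Trav15d-1-dv6d-1, with log2 changes of 0.57 to 1.09, none past the threshold. Trav6d-6 (0.11) and Trav11d (-0.19), in the same stretch, overlapped. The direction of Trav8d-1 was thus not particular to it.

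Each copy of subgroup 2 has a Trav13 segment on its V side. These had log2 changes of -0.74 (SE 0.716) for Trav13d-3, -0.71 (SE 0.683) for Trav13n-3 and -0.60 (SE 0.429) for Trav13-3, with adjusted p of 0.512 or more in edgeR. On their J side, Trav16d-dv11, Trav16n and Trav13-4-dv7 had log2 changes of 0.21 (SE 0.498), 0.57 (SE 0.366) and 0.21 (SE 0.42). The latter signs were opposite to those of the Trav8 copies they adjoin, but the changes of Trav16d-dv11 and Trav13-4-dv7 lay inside their errors. The libraries of Trav13d-3, Trav13n-3, Trav16d-dv11 and Trav13-4-dv7 overlapped. None of the 10 neighbours passed in edgeR.

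In J profile, the segments most like the summed family were Trav6d-7, Trav6-6 and Trav16d-dv11, among 36 segments with at least 100 counts in every library. Their mean overlaps with the family over the 4 libraries were 85.8%, 84.3% and 83.6%, with the shallow tables included. Trav7d-4 was close behind at 83.6% and had 89.1% in EACBE-/- replicate 2 and 88.4% in EACBE+/+ replicate 2, where Trav6-6 had 87.3% and 90.1% and Trav16d-dv11 89.7% and 85.8%, so the order among these 3 depends on the libraries used. In the 5′ share, which was lower for Trav8 in EACBE-/- libraries, the 3 segments differed the other way, and Trav7d-4 had overlapping libraries. Trav6d-7 had 24.6% and 23.1% in EACBE-/- libraries, against 20.0% and 18.4% in EACBE+/+ libraries. Trav6-6 had 33.9% and 36.2% in EACBE-/- libraries, against 26.6% and 30.98% in EACBE+/+ libraries.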

How the data were processed

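Tcra repertoire tables of 4 thymocyte libraries, 2 per genotype, were used. The authors deposited each as whole-number counts of Trav against Traj. The tool that assigned segments is not stated in the sources used, nor whether each count stands for a sequencing read or for 1 receptor; if for a read, an abundant transcript weighs as much as many rare ones. The submitters' processing notes name mm10. Segment names were matched by symbol to RefSeq GRCm38.p6, 111 of 111 V and 43 of 43 Traj; RefSeq lists Trav8-2 also as a synonym of Trav8n-2, so synonyms were not used.

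Counts were fitted with edgeR 4.0.16 (quasi-likelihood test, R 4.3.3) over all features, with table totals as library sizes for segments and pairs, the segment's or family's own total as offset for J profiles, a minimum count of 10 in filterByExpr and Benjamini-Hochberg adjustment. Shares within an offset sum to 100%, so their changes are tied. Trav segments listed in 1 replicate number only were left out. DESeq2 1.42.0, TMM, other filters, each library left out and a replicate block were alternatives. Single values were compared by exact permutation. All members were named; Traj and pairs were named by size among those past the threshold without overlap, or by lowest p. Members, lists and rules were chosen with earlier results of these data known. In simulated counts with a dispersion of 0.05, 90% of 4-fold and 18.2% of 1.5-fold changes were recovered over 104 Trav segments, and 45% and 1.89% over 2440 pairs. Other samples of the series were not analysed here, apart from the Trd tables named in the closing section.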

Additional observations from a re-analysis of the deposited data

Results flagged for a closer look

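The Trd (T cell receptor delta) repertoire tables of the same genotypes, which the comparisons above do not use, also list Trav8 segments. A Trav segment can join Trdd and Trdj segments as well as Traj. Trav8-2 had 56 counts in EACBE-/- replicate 2, all with Trdj1, or 0.119% of 47158 counts (Wilson 95% interval 0.0915 to 0.154). It had 76 counts in EACBE+/+ replicate 2, 75 of them with Trdj1, or 0.270% of 28093 counts (0.216 to 0.338). Both were above the limit of 3 counts that a count of 0 allows. Trav8-1 had 6 counts in EACBE-/- replicate 2, or 0.0127% (0.00583 to 0.0278), and 1 count in EACBE+/+ replicate 2. The replicate 1 tables, with 5615 counts in EACBE-/- and 1744 in EACBE+/+, do not list Trav8, and no test was made. Trav8-2, the member nearest the J array, was the most counted Trav8 segment in both replicate 2 Trd tables. Among all Trav listed there it ranked only 26th of 98 in EACBE-/- replicate 2 and 17th of 83 in EACBE+/+ replicate 2.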

How the results depend on the processing

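The replicate 1 tables are shallow, which widens their counting error, and the cause of the shifts below was not tested. The 2 replicate numbers are not labelled as a shared batch or litter; deviations of replicate 1 from the genotype mean correlated between genotypes (r = 0.87 over 105 segments). With the number as a block, members called were 3 of 5 (Trav8-2, Trav8d-1, Trav8n-2), 2 subgroups, 8 combinations with a J list, 22 Traj and 30 pairs; over all features 49 of 105, 36 of 46, 198 of 306, 283 of 665 and 715 of 2416. Subgroup calls were 0 with TMM (9 of 46 in all) and 0 with DESeq2 (14 of 46 in all). Combinations with a J list were 0 with the table total as offset (15 of 306 in all) and 0 to 6 with a library left out (16 to 136 in all). Traj calls were 7 with the table total as offset, 0 of them higher (28 higher and 115 lower in all), and 1 to 15 with a library left out (9 to 158 in all). Pairs were 3 with TMM, 0 with DESeq2 (16 in all), 3 unfiltered (129 in all), 0 with 1-replicate segments kept (29 in all) and 0 to 2 with a library left out (0 to 150 in all). All V segments called were 2 to 4 with a library left out, and summed segments 0 to 5.

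Counting each pair once says little of usage, since members met 39 to 43 of 43 Traj in the deep libraries and depth sets the number in the shallow ones. So counted, differences between genotypes were 0.124 points for the family's share of the table (reversed), 0.627 (reversed), 2.48 and -3.10 for its 5′, middle and 3′ shares, and for the share of the family 2.16 for Trav8d-1, 1.34 for Trav8d-2 (reversed), -2.45 for Trav8n-2 and -0.684 for Trav8-2. The 5′ difference was -3.03 with copies weighted equally, 3.75 (reversed) with the array split at Traj32, where the 3′ one was -3.75, and -6.86 with narrowed outer lists. Within replicate numbers 1 and 2 as a block, the family's share differed by -0.0871 and -0.574 points, that of Trav8d-2 in the family by -4.50 and -2.73, and its gaps to other Trav, added after seeing the data, by 11.0 and 8.67 (middle) and 0.156 and 2.98 (3′). The share of Trav8-1 in the family was 0.208 within number 2 (reversed) and -1.26 to 1.08 with a library left out. Fitted log2 changes of single members that turned sign, none past the threshold in the setting named, were with the table total as offset -0.019 (Trav8-1, middle), -0.14 (Trav8-2, middle), 0.12 (Trav8d-1, 3′), 0.91 (Trav8d-1, 5′) and -0.72 (Trav8n-2, middle), and with a library left out between -0.45 and 0.28 (Trav8-1, 3′), -0.24 and 0.28 (Trav8d-2, 5′), and -0.29 and 0.072 (Trav8n-2, 5′).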
